A study of Mus musculus with 8 samples.

Results

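The Hedgehog pathway genes described here are Smo, Ptch1, Gli1, Gli2, Gli3, Sufu, Kif7, Hhip and Gas1, measured in leukaemic and normal mouse bone marrow progenitors. They comprised every probe set whose only gene symbol in the platform annotation was one of these 9, which gave 23 of the 45037 probe sets tested, and 9 of the 18193 genes. The 9 genes were chosen by their measured L-GMP and GMP intensities, chiefly those of Smo, so the members' differences are given as a description and nothing is read from how many of them passed a test. Each of 8 Affymetrix arrays held RNA from cells sorted by flow cytometry, 4 from L-GMPs and 4 from GMPs, each with replicates A to D. L-GMPs came from mice with a leukaemia labelled HoxA9+Meis1 AML (acute myeloid leukaemia), and GMPs, by the usual reading granulocyte-macrophage progenitors, came from marrow labelled Normal. The strain and age of the mice, the construct behind the leukaemia, the antigens of the sort and the pooling of animals are not given in the sources used here. Whether each array had its own animal is not stated, and the spread behind each p-value may therefore be technical.

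Hedgehog ligands are secreted proteins that bind PTCH1, a membrane protein which otherwise holds SMO, the signal transducer, inactive. Active SMO moves into the primary cilium and releases the GLI transcription factors from SUFU and from proteolysis, and the GLI factors in turn raise the transcription of Gli1, Ptch1 and Hhip, which are the usual readouts of the pathway. Hedgehog signalling is known chiefly from embryonic patterning and from tumours of the skin and cerebellum, its need in adult blood formation has been disputed, and an inhibitor of SMO is used in the treatment of acute myeloid leukaemia.

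Values are log2 of the deposited RMA intensities, and differences are L-GMP minus GMP on that scale with the standard error (SE) of limma's fit. A probe set passed the threshold when its Benjamini-Hochberg adjusted p over all 45037 probe sets was under 0.05. No detection calls were used. The median of an array lay between 5.24 and 5.49, its lower quartile between 3.65 and 3.75, and its 10th percentile between 2.84 and 2.92. Intensities of different probe sets cannot be set against each other. Of the 23 probe sets, 15 lay below the array's median on all 8 arrays.

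Smo and Ptch1 had the largest differences in the set, and the regions just before their transcription starts are shown because both genes were lower in L-GMPs. The windows are those of RefSeq on GRCm38.p6, from 250 bases before to 50 bases after the start, with CpG dinucleotides in capitals.
Smo, chr6:29735247-29735546, + strand: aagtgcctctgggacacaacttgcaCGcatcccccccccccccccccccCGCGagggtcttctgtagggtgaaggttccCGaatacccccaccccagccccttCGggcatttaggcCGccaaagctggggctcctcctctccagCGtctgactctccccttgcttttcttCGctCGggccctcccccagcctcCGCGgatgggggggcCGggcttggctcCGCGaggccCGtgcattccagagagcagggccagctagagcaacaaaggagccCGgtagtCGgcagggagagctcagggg
Ptch1, chr13:63565686-63565985, - strand: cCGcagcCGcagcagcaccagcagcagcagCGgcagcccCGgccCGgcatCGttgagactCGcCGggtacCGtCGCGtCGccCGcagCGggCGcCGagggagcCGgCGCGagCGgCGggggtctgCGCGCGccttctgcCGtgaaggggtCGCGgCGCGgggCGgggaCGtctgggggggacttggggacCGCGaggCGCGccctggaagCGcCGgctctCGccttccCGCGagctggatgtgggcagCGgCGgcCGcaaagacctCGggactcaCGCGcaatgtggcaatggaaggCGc

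The Ptch1 window held 47 CpG dinucleotides and the Smo window 17, against a median of 7 over 32851 such windows. Windows were found for 8 of the 9 genes, all but Gli1, and their CpG counts ran from 12 in Sufu to 47 in Ptch1. The GLI consensus GACCACCCA, searched on both strands, was in none of these 8 windows and in 0.253% of all windows. The hexamer TGACAG, which MEIS proteins bind, was also in none of the 8 and in 19.2% of all windows. A window without a match says only that these letters are not in it.

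Smo, the transducer itself, was lower in L-GMPs in all 3 of its probe sets. In the brightest (1427048_at) the L-GMP arrays A to D had log2 intensities of 2.65, 2.57, 2.53 and 2.51, and the GMP arrays 8.91, 8.80, 8.62 and 8.51. The groups lay far apart and each was tight, with means of 2.57 ± 0.06 in L-GMPs and 8.71 ± 0.18 in GMPs (SD, n = 4 each). The difference was -6.15 (SE 0.11), a 70.8-fold lower intensity, and 4 probe sets on the whole array had a larger fall. All 4 L-GMP values lay below the 10th percentile of their arrays, where RMA values are compressed, and the fold is uncertain there. In GMPs the same probe set read higher than 84.5% to 88.0% of the probe sets on each array.

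The second Smo probe set (1427049_s_at), designed from the same sequence record as the brightest, had log2 intensities of 3.63, 4.22, 3.60 and 3.71 in L-GMPs and of 6.0, 5.83, 5.57 and 5.83 in GMPs. Its difference was -2.02 (SE 0.16). The third (1442215_at), designed from another record, had 2.57, 2.84, 3.10 and 2.97 in L-GMPs and 4.97, 5.27, 5.45 and 4.89 in GMPs, a difference of -2.28 (SE 0.16). In neither did the groups overlap, and L-GMP replicate B stood highest of its group in the second probe set but not in the others. The 3 probe sets therefore shared a direction and differed in size, and the part of the transcript that each reads is not given.

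**Figure D1:**
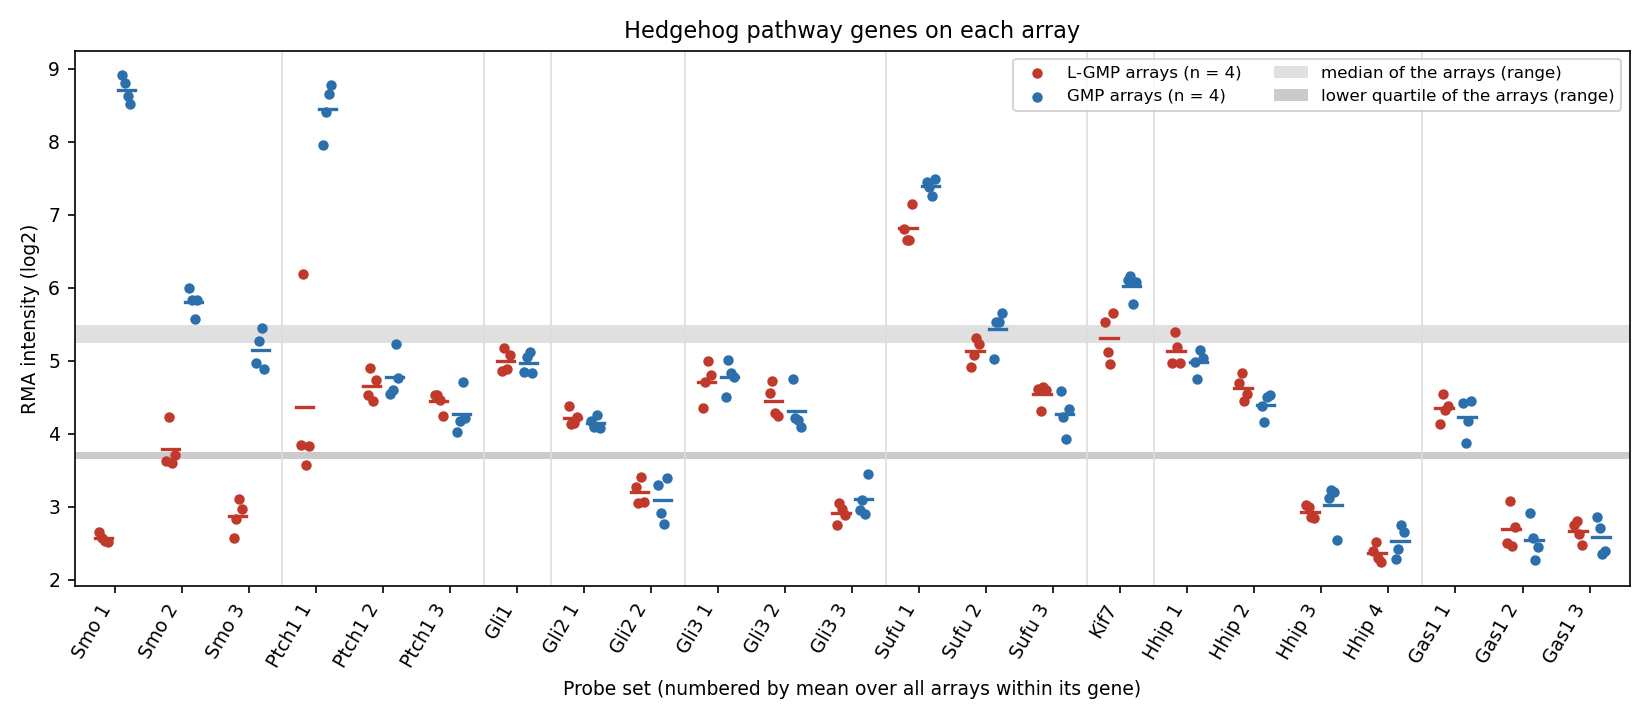
Log2 RMA intensity (vertical axis) of the 23 Hedgehog probe sets (horizontal axis, numbered within a gene by their mean over all arrays), with a point for each of 4 L-GMP arrays (red, left) and 4 GMP arrays (blue, right) and a bar at each group's mean; grey bands show the range over arrays of the median and lower quartile of all probe sets. The groups are far apart in Smo 1 (2.51 to 2.65 in L-GMPs, 8.51 to 8.91 in GMPs) and Ptch1 1, where 1 L-GMP array stands at 6.18, and they overlap in all probe sets of the Gli genes, Hhip and Gas1.

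Ptch1, at once the receptor and a target of the pathway, was lower in L-GMPs in its brightest probe set (1428853_at). That probe set had log2 intensities of 3.84, 6.18, 3.57 and 3.84 in L-GMPs A to D and of 7.95, 8.40, 8.65 and 8.77 in GMPs A to D. L-GMP replicates A, C and D stood close together near the arrays' lower quartile, while replicate B lay between them and the GMP arrays, and the groups did not overlap. Means were 4.36 ± 1.22 in L-GMPs and 8.44 ± 0.36 in GMPs (SD, n = 4 each), a difference of -4.08 (SE 0.49) or a 17-fold lower intensity. Without L-GMP replicate B the difference was -4.69, a 25.8-fold lower intensity, so this array alone moved the fold by more than 1.5 times.

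The other Ptch1 probe sets, designed from 2 other sequence records, showed no such difference. The second (1450824_at) ranged from 4.45 to 4.90 in L-GMPs and from 4.54 to 5.22 in GMPs, with a difference of -0.13 (SE 0.17). The third (1439663_at) ranged from 4.24 to 4.53 in L-GMPs and from 4.02 to 4.70 in GMPs, with a difference of 0.17 (SE 0.15). Both lay below the median of every array in both groups, so in GMPs too they gave no bright signal. The lower Ptch1 level thus rests on 1 of 3 probe sets.

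Sufu, which holds GLI proteins in the cytoplasm, and Kif7, a kinesin that organises the ciliary tip, had small differences. The brightest Sufu probe set (1450024_at) had log2 intensities of 6.80, 6.65, 6.66 and 7.14 in L-GMPs and of 7.45, 7.38, 7.26 and 7.49 in GMPs. The groups did not overlap and the difference was -0.58 (SE 0.13), a 1.5-fold lower intensity. The other Sufu probe sets had differences of -0.30 (SE 0.15) and 0.27 (SE 0.15), with overlapping groups, so the gene's probe sets disagreed in sign. Kif7 had a single probe set (1439637_at), with 5.53, 5.12, 4.95 and 5.66 in L-GMPs and 6.10, 6.16, 5.78 and 6.07 in GMPs. Its groups did not overlap, L-GMP replicate D being the closest to GMP replicate C, and the difference was -0.71 (SE 0.17), a 1.64-fold lower intensity.

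The GLI factors read low and alike in both groups. Gli1, the activator whose transcription is the usual measure of pathway activity, had log2 intensities of 4.86, 5.18, 4.88 and 5.08 in L-GMPs and of 4.85, 5.05, 5.13 and 4.83 in GMPs. Its difference was 0.03 (SE 0.12), the groups overlapped over nearly their whole range, and all 8 values lay below their array's median. The 2 probe sets of Gli2, the main activator downstream of SMO, ranged from 3.05 to 4.38 in L-GMPs and from 2.77 to 4.25 in GMPs, with differences of 0.07 (SE 0.10) and 0.10 (SE 0.16). The 3 probe sets of Gli3, which acts mostly as a repressor, ranged from 2.74 to 4.99 in L-GMPs and from 2.90 to 5.0 in GMPs, with differences from -0.19 to 0.14. At signals this low a difference between the groups may not be measurable, so these values do not show that the GLI factors were equal.

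Hhip, a membrane protein that binds and sequesters the ligands and is itself a GLI target, had 4 probe sets between 2.24 and 5.40 in L-GMPs and between 2.28 and 5.15 in GMPs. Their differences ran from -0.17 to 0.23, 2 of them above 0 and 2 below, and all 4 overlapped. Gas1, a co-receptor that helps the ligands reach PTCH1, had 3 probe sets between 2.46 and 4.54 in L-GMPs and between 2.27 and 4.45 in GMPs, with differences from 0.08 to 0.14. Gas1 was below the lower quartile on all 8 arrays in 2 of these 3.

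Over the set, 6 of 23 probe sets passed the threshold, all lower in L-GMPs (3 of Smo and 1 each of Ptch1, Sufu and Kif7), and the same number had groups that did not overlap. The share over all probe sets was 10.9% past the threshold, 3.89% past it and higher in L-GMPs, 7.03% past it and lower, and 17.1% without overlap. The remaining 17 probe sets had differences between -0.30 and 0.27, of which 11 were above 0 and 6 below. The median difference of the 23 was -0.06, against 0.00 over all probe sets tested. Centring each array on its median shifted the median difference of all probe sets to 0.14, and under it 3 of the 17 changed sign, Gli3's brightest probe set to 0.08, the third of Hhip to 0.04 and the second of Ptch1 to 0.01.

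**Figure D2:**
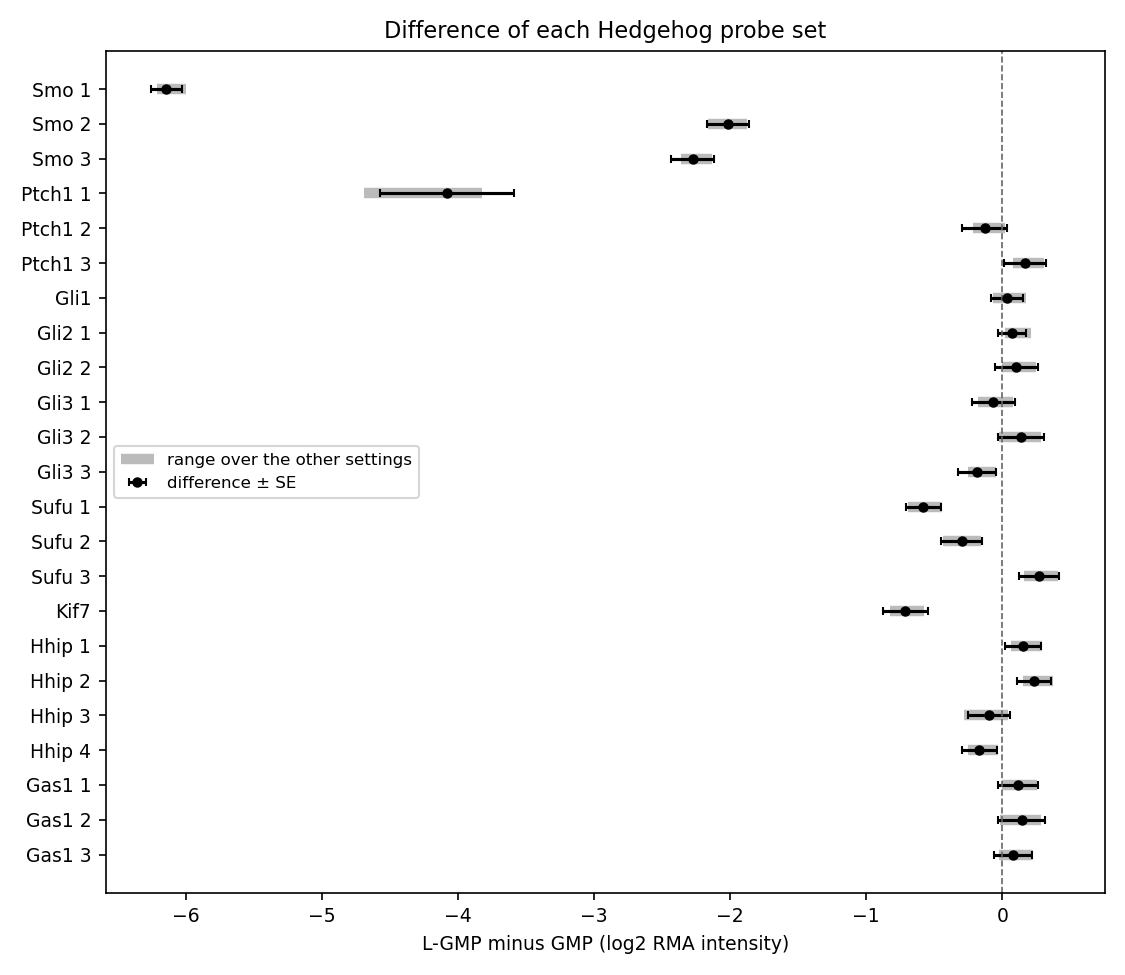
Difference between L-GMPs and GMPs (horizontal axis, log2 RMA intensity, L-GMP minus GMP) for each of the 23 Hedgehog probe sets (vertical axis), with points and bars for the difference ± SE (n = 4 arrays per group) and grey bars for its range over the other processing settings. The 3 Smo probe sets and the first Ptch1 probe set lie between -6.15 and -2.02, and all others lie between -0.71 and 0.27.

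The 5 named genes whose values over the 8 arrays lay nearest to those of the brightest Smo probe set, each centred on its own mean, were Gja1, Ppic, Hoxa9, Prom1 and Bex1. The Hoxa9 probe set was the one with the lower mean over all arrays. Their Euclidean distances to Smo were 0.72, 0.80, 0.94, 1.25 and 1.42. Gja1 encodes the gap junction protein connexin 43 and Prom1 the progenitor antigen CD133. Nearest to the brightest Ptch1 probe set were Nedd4, Marcks, Lpcat2, Tspan13 and Ptpn12, at distances of 1.07, 1.2, 1.24, 1.30 and 1.48. In each of these 5, as in Ptch1, L-GMP replicate B was the highest L-GMP array, which follows from choosing them by nearness to the Ptch1 values. Marcks, a membrane-bound substrate of protein kinase C, had 5.70 on that array and 2.48 to 2.74 on the other L-GMP arrays, against 7.36 to 8.01 on the GMP arrays. Lpcat2, a lysophospholipid acyltransferase, had 7.46 on it and 3.91 to 4.59 on the others, against 8.80 to 9.57 on the GMP arrays.

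Of the genes outside the 9, each taken in its brightest probe set by mean over the 8 arrays, 137 with other roles in the pathway were measured. Among them 10 rose and 14 fell, and their median difference was -0.03, against 0.01 over all 18193 genes. Over all genes 11.2% passed the threshold, 4.33% higher and 6.87% lower in L-GMPs.

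None of the 10 genes of ligands and their lipidation, release and transport passed the threshold, and their differences ran from -0.47 to 0.31. Shh, Ihh and Dhh, the ligands themselves and named after their values were seen, averaged 5.68 ± 0.12, 4.36 ± 0.28 and 5.41 ± 0.14 in L-GMPs and 5.55 ± 0.14, 4.05 ± 0.26 and 5.31 ± 0.13 in GMPs (SD, n = 4 each). In each of these ligands the groups overlapped. Hhat, the acyltransferase that attaches palmitate to the ligands, had the largest difference in the list, at -0.47 (SE 0.27, limma adjusted p = 0.31).

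Of 7 other receptors and co-receptors measured, 2 fell and 0 rose. Both were among the 4 glypicans measured, heparan sulphate proteoglycans of the cell surface, of which Gpc5 and Gpc6 had differences of 0.08 (SE 0.15) and 0.10 (SE 0.10) and did not pass. Gpc3, which competes with PTCH1 for ligand, had 5.24, 5.11, 5.33 and 5.10 in L-GMPs and 6.40, 7.18, 7.03 and 6.93 in GMPs, and fell by 1.69 (SE 0.16, limma adjusted p = 9.46e-05). Gpc4 had 3.37, 3.90, 4.13 and 3.83 in L-GMPs and 5.40, 4.8, 5.23 and 4.98 in GMPs, and fell by 1.29 (SE 0.18, limma adjusted p = 0.00127). The co-receptors Cdon and Boc, which act beside Gas1 and were also named after their values were seen, had differences of -0.06 (SE 0.14) and -0.16 (SE 0.13) and did not pass.

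The list of SMO regulators also held genes that act beside SMO, such as Gpr161. Of its 18 measured genes, 1 rose and 3 fell. The beta-arrestin genes, whose products accompany SMO to the cilium and also quiet many other receptors, moved in opposite directions. Arrb1 fell by 0.75 (SE 0.09, limma adjusted p = 0.000534), with 8.30 to 8.41 in L-GMPs and 9.04 to 9.19 in GMPs. Arrb2 rose by 0.42 (SE 0.11, limma adjusted p = 0.0378), a call lost in 10 of 17 other settings (adjusted p 0.0151 to 0.145 over them). Gpr161, a ciliary receptor that restrains the pathway through cyclic AMP, fell by 0.62 (SE 0.16, limma adjusted p = 0.0343) although its groups overlapped, and lost its call in 9 of 16 other settings (0.00631 to 0.104). Ankmy2 fell by 0.52 (SE 0.12, limma adjusted p = 0.0191), and its call was lost in 3 of 17 (0.00506 to 0.065), among them leaving out GMP replicate C or D.

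Among 29 kinases, ubiquitin ligase parts and adaptors that act on GLI proteins, 1 rose and 3 fell. Of 4 regulatory subunits measured of protein kinase A, the kinase that marks GLI proteins for processing, 1 rose, 1 fell and 2 did not pass (Prkar1a, difference 0.19, SE 0.13, and Prkar1b, 0.21, SE 0.13). Prkar2b fell by 0.94 (SE 0.12, limma adjusted p = 0.000561), with 8.36 to 8.75 in L-GMPs and 9.35 to 9.52 in GMPs. Prkar2a rose by 0.75 (SE 0.15, limma adjusted p = 0.0113), with 9.31 to 10.01 in L-GMPs and 8.79 to 9.10 in GMPs. Csnk1e, a casein kinase 1 isoform, fell by 1.05 (SE 0.16, limma adjusted p = 0.00197), with 5.57 to 6.26 in L-GMPs and 6.73 to 6.90 in GMPs, and fell by 0.59 when its probe sets were averaged. Skp1, a core part of SCF ubiquitin ligases, fell by 0.38 (SE 0.11, limma adjusted p = 0.049) and lost its call in 10 of 17 other settings (0.0218 to 0.158).

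The 53 cilium and intraflagellar transport genes changed in both directions, 5 higher and 5 lower, with a median difference of -0.06. Ttc8 (BBS8), a subunit of the BBSome that carries membrane proteins in and out of the cilium, had 3.08, 3.02, 3.07 and 3.18 in L-GMPs and 4.99, 5.99, 5.32 and 5.90 in GMPs, and fell by 2.46 (SE 0.20, limma adjusted p = 3.05e-05). Cc2d2a, of the ciliary transition zone, had 3.87, 4.26, 3.62 and 3.73 in L-GMPs and 4.53, 5.08, 5.46 and 5.77 in GMPs, and fell by 1.34 (SE 0.24, limma adjusted p = 0.00612). Tmem216, another transition zone gene, fell by 0.91 (SE 0.16), and Wdpcp, a planar polarity effector needed for ciliogenesis, fell by 0.89 (SE 0.18), or by 0.44 when its probe sets were averaged. The remaining gene that fell, Wdr19, named after its values were seen, did so by 0.74 (SE 0.12). Averaged over its probe sets, Wdr19 fell by 0.32 and did not pass (limma adjusted p = 0.17). The members that rose, named after their values were seen, were Ift57, Ift27, Bbs9, Tctn1 and Ift172, by 0.56 to 0.81. Ift57, with the largest of these, had a difference of 0.40 when its probe sets were averaged and then did not pass (limma adjusted p = 0.0912, and 0.00115 to 0.0912 over its other settings). Ift27 lost its call without GMP replicate C, and Ift27, Tctn1 and Ift172 lost theirs when GMP replicate D and L-GMP replicate B were both left out, whereas Bbs9 kept its call in all 17 other settings. Kif3a, a motor subunit of ciliary transport also chosen after its values were seen, had a difference of -0.53 (SE 0.24) and did not pass.

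Of 20 genes reported as GLI targets in other tissues, 3 rose and 1 fell. Ccnd1 (cyclin D1) had 8.98, 8.11, 9.20 and 9.19 in L-GMPs and 7.70, 7.03, 7.22 and 7.11 in GMPs, and rose by 1.6 (SE 0.24, limma adjusted p = 0.00209). Ccne1 (cyclin E1) rose by 0.54 (SE 0.15, limma adjusted p = 0.0419), with overlapping groups, and lost its call in 9 of 17 other settings (0.00922 to 0.108). Mycn rose by 8.37 (SE 0.22) in its brightest probe set and by 2.37 when its probe sets were averaged, and Prom1 fell by 5.75 (SE 0.24). Ccnd2 (cyclin D2), chosen after its values were seen, had 6.04, 10.2, 8.93 and 6.99 in L-GMPs A to D and 10.2 to 10.8 in GMPs. Its difference of -2.37 (SE 0.73, limma adjusted p = 0.0644) did not pass. Without L-GMP replicate B, where Ccnd2 was highest in L-GMPs, 2 genes of the list fell.

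**Figure D3:**
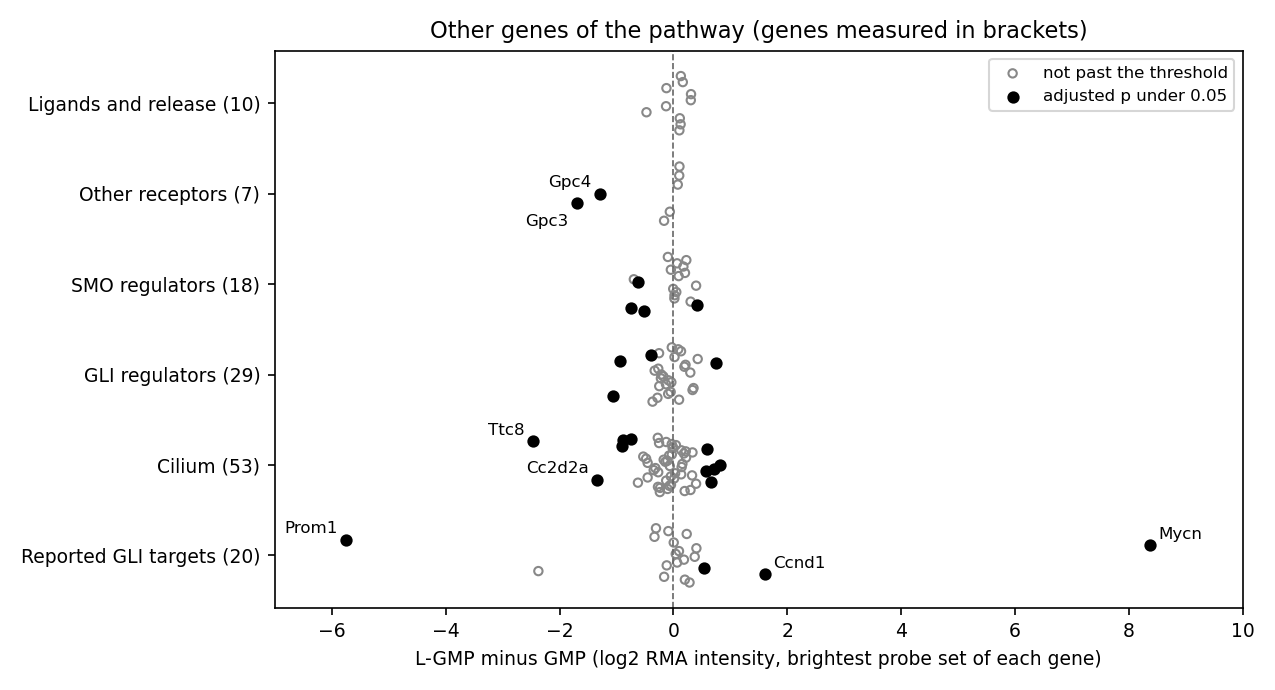
Difference between L-GMPs and GMPs (horizontal axis, log2 RMA intensity, L-GMP minus GMP) for the genes of 6 other pathway lists (vertical axis), 1 point per gene in its brightest probe set, filled where limma's adjusted p was under 0.05. Most genes lie near 0, none of the 10 ligand genes is filled, and Prom1 at -5.75 and Mycn at 8.37 are the extremes.

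The sorted cells of the groups also differed in markers of several cell types, and in bulk RNA fewer cells of a type and less RNA per cell cannot be told apart. Of 9 stem cell markers measured, Prom1 and Meis1 among them, 8 fell and 0 rose, and their mean level was 4.10 to 4.48 on L-GMP arrays and 6.27 to 6.45 on GMP arrays. Of 8 eosinophil, basophil and mast cell markers 7 fell and 0 rose (4.86 to 5.77 in L-GMPs, 8.45 to 9.97 in GMPs), and of 9 megakaryocyte and erythroid markers 5 fell and 0 rose (4.56 to 5.10 in L-GMPs, 5.73 to 6.89 in GMPs). Of 7 monocyte and macrophage markers 6 rose and 1 fell (9.35 to 9.74 in L-GMPs, 8.17 to 8.40 in GMPs). These lists moved in the same comparison as Smo and Ptch1, and their part in the Hedgehog values was not tested.

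The 12 stromal and endothelial markers averaged 4.4 to 4.46 on L-GMP arrays and 4.33 to 4.56 on GMP arrays, and 0 rose and 1 fell, Emcn (endomucin), by 0.71 (SE 0.16, limma adjusted p = 0.019). Pdgfrb, the platelet-derived growth factor receptor beta gene and the highest of them over all arrays, had a difference of 0.34 (SE 0.21) and did not pass. The 8 lymphoid markers had 0 changes in either direction, and Cd79b, their highest member over all arrays, had a difference of -0.40 (SE 0.22). On L-GMP replicate B, where Ptch1 was higher than on the other L-GMP arrays, the stem cell list (4.48), the megakaryocyte and erythroid list (5.10) and the eosinophil, basophil and mast cell list (5.77) had their highest means within L-GMPs, while the stromal list stood at 4.45, within the range of the others. By gene, 5 of 9 stem cell markers and 7 of 9 megakaryocyte and erythroid markers were highest there. So were 4 of 12 stromal and endothelial, 3 of 12 GMP, 2 of 8 lymphoid and 1 of 7 monocyte and macrophage markers. Of the monocyte and macrophage markers, 4 of 7 were lowest there. Over all probe sets, L-GMP replicate B correlated at 0.983 to 0.987 with the other L-GMP arrays, which correlated at 0.989 to 0.990 with each other. Whether these counts follow from that was not tested, and the share of all probe sets highest on replicate B was not counted. Only 2 of 8 eosinophil, basophil and mast cell markers were highest on it, both named after their values were seen. They were Cpa3 (9.05, against 3.46 to 6.75 on the other L-GMP arrays) and Hdc (8.23, against 6.62 to 6.76). Of the same 8, 3 were lowest on replicate B and 5 were highest on replicate C.

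**Figure D4:**
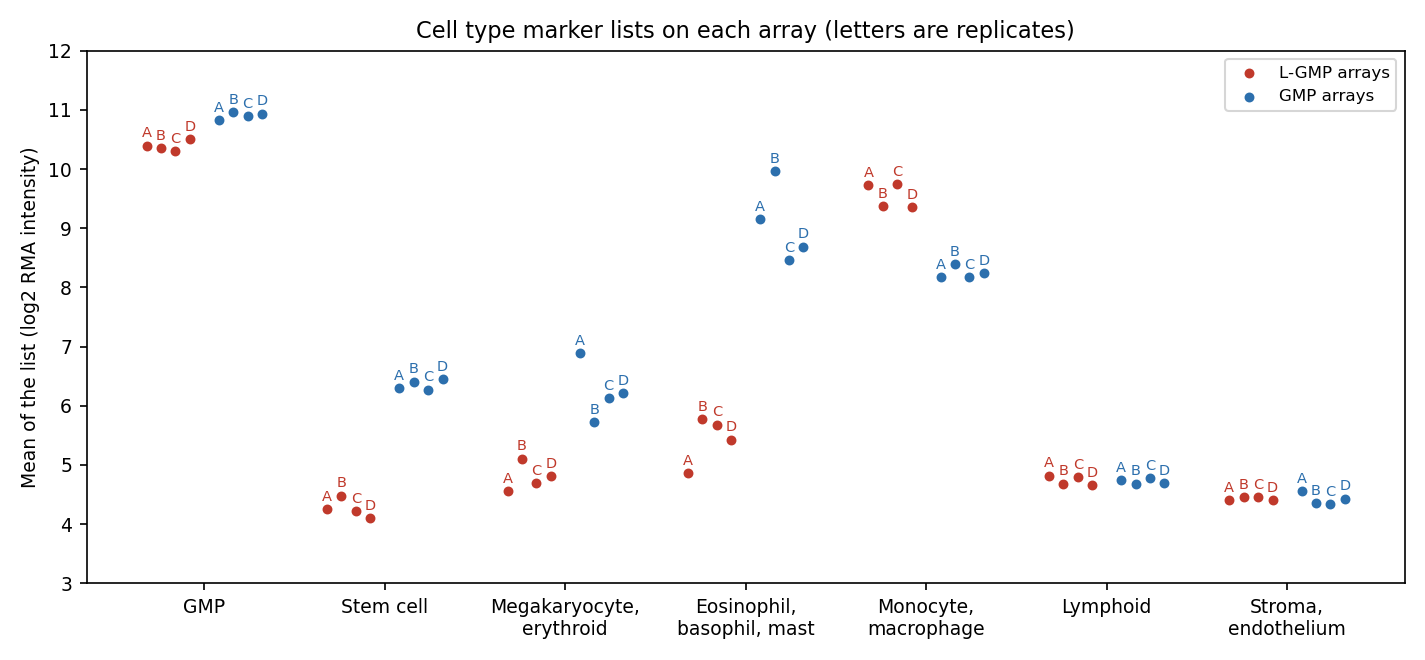
Mean log2 RMA intensity of 7 cell type marker lists (horizontal axis) on each of 4 L-GMP arrays (red, left) and 4 GMP arrays (blue, right), with the replicate letter above each point. The stem cell list lies at 4.10 to 4.48 in L-GMPs and at 6.27 to 6.45 in GMPs, and the lymphoid and stromal lists overlap between the groups.

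GMP markers read high in both groups. Of 12 GMP markers measured, 5 fell and 0 rose, and their mean level was 10.3 to 10.5 on L-GMP arrays and 10.8 to 10.96 on GMP arrays. Mpo (myeloperoxidase), the highest of them, averaged 13.2 ± 0.09 in L-GMPs and 13.6 ± 0.04 in GMPs (SD, n = 4 each). Its difference of -0.39 (SE 0.10) was the smallest of the 5 that fell. The others were Elane (-1.75, SE 0.38), Csf3r (-1.16, SE 0.18), Kit (-0.96, SE 0.14) and Prtn3 (-0.84, SE 0.18). The genes of the leukaemia's label did not check it fully. Hoxa9 was higher in L-GMPs in the probe set brighter by mean over all arrays (difference 4.82, SE 0.29) and lower in the other (-6.66, SE 0.15). In GMPs the other was the brighter, at 9.42 against 6.79. Meis1 was lower in all 3 of its probe sets (-3.05 to -1.47). The difference between the 3' and the 5' Gapdh control was largest on GMP replicate D, 2.74 against 1.24 to 1.76 on the other 7 arrays. Without that array Smo's brightest probe set had a difference of -6.21. Those of Sufu and Kif7 were -0.55 and -0.70, close to their values over all arrays, but no longer passed the threshold. Both calls were also lost without L-GMP replicate C and kept without L-GMP replicate A, B or D. The cause of these losses was not tested.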

How the data were processed

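RNA was prepared with Trizol and a spin column, per the labels' protocols. RMA, named in the submitters' processing notes, corrects background, normalizes between arrays and summarises probe sets. No version of it was found in the sources used. The authors deposited intensity on a linear scale, as read from the values, and log2 was taken here. The labelling kit in the protocols is a sense-strand one, and the probe set names belong to a 3' design, so the strand and region read are unsettled. Of 45101 probe sets 64 controls were left out, and of the 45037 others 34945 had 1 symbol, 932 several and 9160 none. Entrez identifiers matched 34741 to RefSeq, with 0 symbols changed. No unused columns were present. Within groups arrays correlated at 0.983 to 0.994, and precision is limited by how few arrays there are.

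Groups came from the sample titles. limma 3.58.1 (R 4.3.3; figures and summaries in Python 3.11.15) was fitted to group alone over all 45037 probe sets, 2-sided, with Benjamini-Hochberg adjustment at 0.05. The script was tested on simulated data with independent noise. There it recovered 73% of 100 changes of 1 log2 unit and 98% of 100 changes of 2 log2 units, with 4 false calls. Same-lettered arrays of the groups deviated together at r of -0.07 to 0.10, so the letters were not taken as pairs. The members and lists were chosen with earlier results of these data known. Of 229 list genes 210 were found. Named were all 9 Hedgehog genes, up to 4 genes with the largest changes past the threshold in each list (the largest change where none passed), the highest marker of each cell type list, and the 5 genes nearest to Smo and to Ptch1. From the cell type lists the text names only some of the genes that this rule covers.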

Additional observations from a re-analysis of the deposited data

Results flagged for a closer look

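An array was marked where its gap to the nearest array of its group, divided by the group's range, was above Dixon's 95% limit for 4 samples. Chance marks about 1 in 20 groups, and 10 marks were found in 144 groups tested, 5 of them on L-GMP replicate B. In the Hedgehog set 3 of 46 groups were marked. The brightest Ptch1 probe set stood at 6.18 in L-GMP replicate B, against 3.57 to 3.84 on the other L-GMP arrays. The dimmest Sufu probe set stood at 4.31 in L-GMP replicate B, against 4.6 to 4.64. The third Hhip probe set stood at 2.54 in GMP replicate D, against 3.12 to 3.24.

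Among the other genes, L-GMP replicate B was highest of its group in Gpr161 (4.57, against 3.97 to 4.04), in Vwf (4.78, against 4.29 to 4.32) and in a dimmer Meis1 probe set (4.48, against 3.34 to 3.5). Csnk1e stood at 6.26 in L-GMP replicate D, against 5.57 to 5.63, and Prg2 at 6.37 in L-GMP replicate C, against 4.44 to 4.72. GMP replicate A was lowest of its group in Cd68 (6.70, against 6.87 to 6.89) and in Mpeg1 (8.78, against 9.21 to 9.26).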

How the results depend on the processing

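Other scalings, filters, priors and weights, averaging a gene's probe sets, the replicate letter as a block and leaving out each array were tried, and leaving out GMP replicate D and L-GMP replicate B together was chosen after seeing the data. The difference of Smo's brightest probe set was -6.0 after centring on the median and -6.21 to -6.08 with each array left out. All 3 Smo probe sets and the brightest of Ptch1 passed the threshold in every setting that kept them. The Hedgehog genes were chosen by their measured intensities, chiefly those of Smo, so nothing is read from which calls they kept or lost. The filter at 50% removed the dimmer 2 of Smo. The Sufu call was lost after centring, without L-GMP replicate C and without GMP replicate D. That of Kif7 was lost without L-GMP replicate C, GMP replicate B or GMP replicate D. Both were lost without GMP replicate D and L-GMP replicate B together. Member probe sets past the threshold numbered 4 to 6 with each array left out, and 6 with the replicate block.

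All probe sets past the threshold numbered 4921 (4077 with the replicate block) and 2972 to 5334 with each array left out, with 2972 without GMP replicate B and 3244 without GMP replicate D. Those higher numbered 1754, against 4301 (of 6523 in all) after centring, 1168 without GMP replicate D and L-GMP replicate B, and 990 to 1851 with each array left out (990, 1073 and 1087 without GMP replicate B, C and D). Those lower numbered 3167, and 1982 (without GMP replicate B) to 3483 with each array left out. The 10 signalling genes past the threshold were 6 to 9 with each array left out (6 without GMP replicate C). Of these, 2 rose, against 7 after centring, 4 after quantile normalization, and 1 under the replicate block, in the mean of probe sets and without GMP replicate D and L-GMP replicate B (1 to 2 with each array left out). 8 fell, against 5 after centring (5 to 8 with each array left out). Cilium genes that rose numbered 5, against 3 without GMP replicate D and L-GMP replicate B, and those that fell 5, against 8 with array weights. The 4 GLI target genes were 7 after centring and 7 in the mean of probe sets. Of these, 3 rose, against 6 after centring and 5 after quantile normalization. 1 fell, against 2 with array weights and without GMP replicate D and L-GMP replicate B, 3 in the mean of probe sets, and 1 to 2 with each array left out. The causes were not tested. Low signal limits the Gli, Hhip and Gas1 values.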
